A study of Mus musculus with 8 samples.

Results

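The genes examined were 10 receptors and ligands of the immunoglobulin family that raise or lower T cell activation, out of 16308 genes with read counts in Th17 and naive cells. They were taken by gene name from a list chosen with earlier results of these data known. All 10 were found: Cd28, Icos, Ctla4, Pdcd1, Lag3, Tigit, Havcr2, Btla, Cd160 and Cd200. All 10 also passed the filter on low counts, Havcr2 through its Th17 reads and Cd160 mainly through its naive reads.

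The study took C57BL/6 mouse CD4+ T cells and sequenced ribosome-depleted RNA. Its Th17 group of 2 libraries was made from naive cells kept for 72 h on IL-6 (20 ng/mL) and TGF-β (0.1 ng/mL), with antibodies to CD28 (anti-CD28, 1 µg/mL) and CD3ε (anti-CD3ε, 0.25 µg/mL). These are the doses in the treatment labels, although the growth protocol lets TGF-β reach 5.0 ng/mL and the treatment protocol also names 48 h. The naive group of 2 libraries was untreated Naive CD4+ cells. Both groups are wild type, as the design text says and the WT in their column headers. Those headers also carry the name Malat1, and they do not say what it marks. Receptor stimulation, cytokines and time in culture all differ between these groups and cannot be told apart. DDX5-deficient Th17 cells (labelled DDX5∆T, 2 libraries) and their wild type (WT, 2 libraries), cultured for 72 h in the same medium per the labels, entered with RNA editing sites alone, and their expression was not analysed here.

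Full activation of a naive T cell needs antigen recognition together with a costimulatory signal. CD28, which resting T cells already carry, gives that signal when it meets CD80 or CD86 on an antigen-presenting cell, and ICOS, its relative, is displayed after activation. CTLA4 competes with CD28 for the same ligands, and PD-1 (Pdcd1), LAG3, TIGIT, TIM-3 (Havcr2), BTLA and CD160 restrain T cells on binding ligands of their own. CD200 is a surface ligand whose receptor, CD200R, restrains the cell that carries it.

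Between 11768994 and 26624436 reads per library fell on genes, and log2 levels correlated across genes at r = 0.96 between the Th17 libraries and 0.99 between the naive libraries, with genes not being independent replicates. Levels are given as CPM, reads of a gene relative to a library size scaled by the trimmed-mean method TMM. A difference was called at an adjusted p under 0.05 in edgeR's quasi-likelihood test, adjusted by the Benjamini-Hochberg method over all 11989 genes tested. Th17 library 2, the shallowest, had at least 1 read on 15316 genes against 14435 in Th17 library 1, and 3 reads amounted to 0.104 to 0.227 CPM over the 4 libraries. As to identity, 6 of 7 T cell markers fell, among them Cd3e at 136 ± 21.9 CPM in Th17 and 611 ± 98.6 CPM in naive cells (SD, n = 2), and all 7 were present in each group. All 6 Th17 markers rose, and all 6 naive markers fell.

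Of the 10 receptor genes 8 were higher in Th17 cells, 1 was lower and 1 was not called. Over all genes tested 34.3% were called higher and 30.7% lower, so calls in either direction were common in this comparison. These were 4116 higher and 3684 lower genes, and with library totals alone as the scaling they were 5186 and 2619. Rises by a log2 of at least 3 were less common, at 12.9% of all genes tested, and 7 of the 10 receptor genes were among them. Havcr2 is counted among the 8 and the 7, but it passed the filter on low counts only through its Th17 reads and so had to differ, and its call supports nothing. Cd160 passed mainly through its naive reads, with 1 Th17 library also past the filter. The median log2 fold change was 3.89 over the 10 and 0.06 over all genes tested. Because the 10 were chosen with earlier results of these data known, these comparisons describe them and do not test them. In bulk RNA, a change in the share of cells with a transcript and a change in its amount per cell cannot be told apart.

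**Figure D1:**
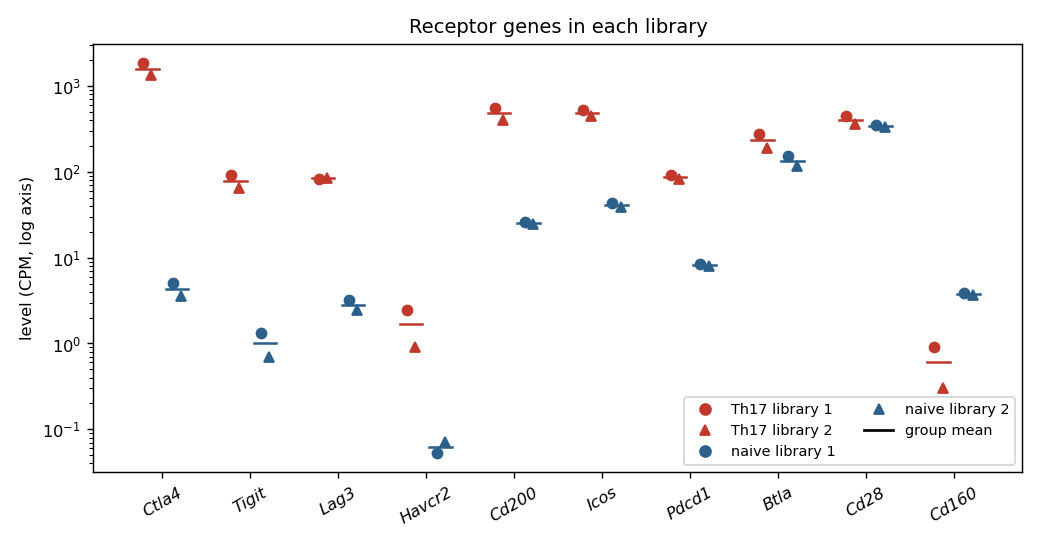
Level of each of the 10 genes in every library, in CPM on a log axis, with circles for library 1, triangles for library 2 and bars for group means of Th17 (red) and naive cells (blue). The gap is widest for Ctla4, at 1837 and 1341 CPM in Th17 against 5.09 and 3.59 CPM in naive libraries, and narrowest for Cd28, while Cd160 alone lies lower in Th17 cells.

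Ctla4, the inhibitory counterpart of Cd28, had 52949 and 17701 reads in the Th17 libraries, against 96 and 51 reads in the naive libraries. In CPM these were 1837 and 1341 in Th17 cells and 5.09 and 3.59 in naive cells. The groups lay far apart beside the spread within each, with a 362-fold difference whose 95% interval ran from 219 to 600. The log2 fold change was 8.50 (SE 0.32, edgeR adjusted p = 1.8e-07). In the authors' deposited table, Ctla4 had the largest Wald statistic of all genes, at 46.3. In the edgeR fit used here it ranked 295 by log2 fold change, from the highest, and 78 by p-value.

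Tigit, which competes with the activating receptor CD226 for the ligand CD155, had 92.3 and 64.1 CPM in Th17 libraries, against 1.33 and 0.704 CPM in naive libraries. Its naive values rest on 25 and 10 reads. The log2 fold change of 6.22 (SE 0.33, edgeR adjusted p = 6.5e-06) was the second largest of the 10. Lag3, whose product resembles CD4 and binds MHC class II, had 82.7 and 85.5 CPM in Th17 libraries and 3.18 and 2.46 CPM in naive libraries. It had the smallest relative spread between the Th17 libraries and a log2 fold change of 4.88 (SE 0.20, edgeR adjusted p = 2.2e-07).

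Pdcd1, which encodes PD-1, had 92.3 and 82.1 CPM in Th17 libraries, against 8.33 and 8.03 CPM in naive libraries. This was a 10.6-fold difference (95% interval 8.18 to 13.9, edgeR adjusted p = 5.7e-07). With 157 and 114 reads, Pdcd1 was measured in naive cells well above the level of 3 reads. Btla, which binds the TNF receptor family member HVEM, was abundant in both groups, at 279 and 189 CPM in Th17 libraries and 153 and 118 CPM in naive libraries. Its log2 fold change of 0.79 (SE 0.23, edgeR adjusted p = 0.016) was the smallest one called. Btla was not called without Th17 library 1 (log2 0.45, adjusted p = 0.092), without naive library 1 (0.94, adjusted p = 0.11) or without naive library 2 (0.54, adjusted p = 0.25).

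The remaining pair of inhibitory receptors was scarce. Havcr2, which encodes TIM-3, had 70 and 12 reads in Th17 libraries and 1 read in each naive library. The ratio of reads was 32.2 with a counting interval of 8.65 to 271, and the call as higher is a description, since the filter let the gene through on its Th17 reads alone. At 2.43 and 0.909 CPM, the Th17 libraries differed 2.67-fold from each other. Cd160, which shares the ligand HVEM with BTLA and is best known from cytotoxic lymphocytes, had 26 and 4 reads in Th17 libraries and 74 and 52 reads in naive libraries. It was the one gene of the 10 that fell, to 0.902 and 0.303 CPM in Th17 libraries, against 3.93 and 3.66 CPM in naive libraries (log2 fold change -2.57, SE 0.60, edgeR adjusted p = 0.0049). Its log2 value was -3.64 without Th17 library 1 and -2.06 without Th17 library 2. Leaving out either naive library ended the calls of both Havcr2 and Cd160, with adjusted p from 0.11 to 0.16, and Havcr2 did not pass the filter without Th17 library 1.

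Cd160 shares 68 exonic bases with Pdzk1 on the opposite strand. Pdzk1 had 16 and 936 reads in the Th17 libraries and 0 in the naive libraries. In the same Th17 libraries Cd160 was at 0.902 and 0.303 CPM. Whether reads of Pdzk1 entered the counts of Cd160 was not tested. Markers of CD8 T and NK cells summed to 24.4 and 24.5 CPM in Th17 libraries and to 92.5 and 108 CPM in naive libraries, and all 4 tested of 8 fell. Most of the naive sum was Prf1, at 52.8 and 59.6 CPM, and Cd8b1, at 20.9 and 27.4 CPM. The NK genes Ncr1 and Klrb1c had 1 read each in Th17 cells, against 11 and 18 reads in naive cells. Klra8 was at 0 in Th17 cells and had 3 and 1 reads in the naive libraries. These NK genes were too scarce to be tested. The part of these cells in the fall of Cd160 was not tested.

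Among the costimulatory genes, Icos had 520 and 447 CPM in Th17 libraries, against 43.6 and 39.4 CPM in naive libraries. The 11.6-fold difference (95% interval 8.73 to 15.5, edgeR adjusted p = 7.3e-07) exceeded the spread between libraries. Cd28, the receptor that the anti-CD28 in the medium binds, had 451 and 364 CPM in Th17 libraries and 353 and 331 CPM in naive libraries. The groups did not overlap, but the difference did not pass the test, at a log2 fold change of 0.25 (SE 0.18, 95% interval -0.15 to 0.65, adjusted p = 0.23). A rise of Cd28 above 1.57-fold lay outside that interval. With library totals alone, which moved the median over all genes by 0.30, Cd28 was called at 0.55 (adjusted p = 0.021). Set against the median of all genes, that value was 0.19, as it was with TMM scaling.

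Cd200, the ligand among the 10, had 562 and 398 CPM in Th17 libraries, against 26.3 and 24.6 CPM in naive libraries. Its 18.8-fold difference (95% interval 13.3 to 26.8, edgeR adjusted p = 8.2e-07) was larger than that of Icos or Pdcd1. CD200 restrains myeloid cells that carry CD200R, and the receptor gene Cd200r1, also found in T cells, had 16.4 and 8.71 CPM in Th17 libraries and 16.9 and 17.7 CPM in naive libraries. Cd200r1 was not called (log2 -0.45, SE 0.30), though without Th17 library 1 it was, at -1.02 (adjusted p = 0.0013).

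**Figure D2:**
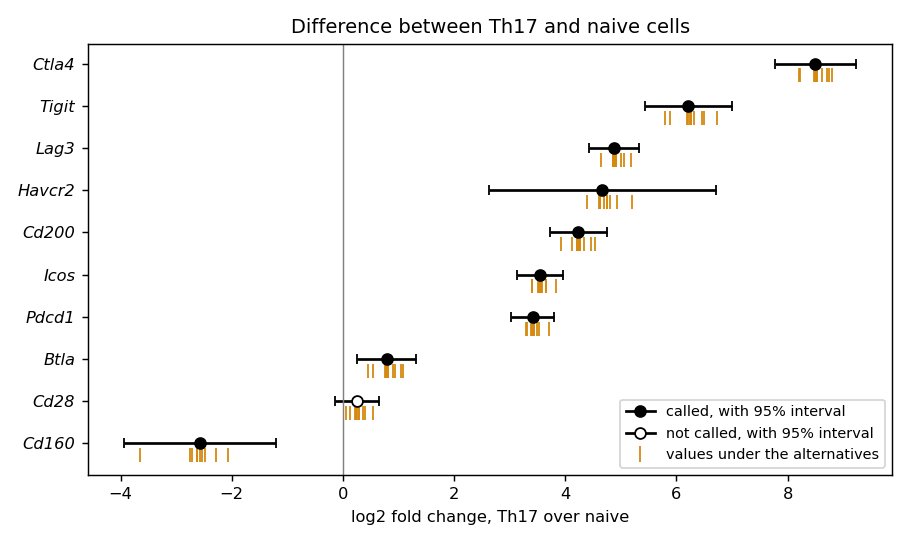
Difference between Th17 and naive cells for each gene, as a log2 fold change (points with 95% interval, open where not called) and its values under the 11 alternative settings (orange ticks, Havcr2 under 10). Ctla4 at 8.50 and Tigit at 6.22 stand highest, the interval of Cd28 spans 0, and no tick lies on the other side of 0 from its point.

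The 2 groups did not overlap for any of the 10 genes, as for 85% of all genes tested, so this does not set the 10 apart. In 6 of them (Ctla4, Tigit, Lag3, Cd200, Icos and Pdcd1) the call held under each of the 11 alternatives. Library 1 lay above library 2 for 9 of the 10 genes in Th17 cells, Lag3 being the exception, and for 9 of the 10 in naive cells, Havcr2 being the exception. Over all genes tested library 1 was the higher in 60.2% for Th17 and in 49.1% for naive cells. The ratio of Th17 library 1 to library 2 ran from 0.967 for Lag3 to 2.98 for Cd160, and that of the naive libraries from 0.754 for Havcr2 to 1.88 for Tigit.

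Regulatory T cells are a known site of Ctla4, Tigit and Icos transcripts. Their transcription factor gene Foxp3 was at 0.104 and 0.0758 CPM in Th17 libraries and at 7.64 and 5.84 CPM in naive libraries, and the regulatory marker Gpr83 at 6.83 and 3.94 against 48.8 and 26.9 CPM. Of the 6 regulatory markers 3 rose and 2 fell, and they summed to 4126 and 3190 CPM in Th17 and 127 and 98.5 CPM in naive libraries, most of the Th17 sum being Il2ra. Foxp3, among those that fell, passed the filter on low counts only through its naive reads, so its call is a description. Of 6 B cell markers, which summed to 0.624 and 1.29 CPM in Th17 and 2.33 and 3.17 CPM in naive libraries, 2 were tested and 1 fell. Of 8 myeloid and dendritic markers, at 7.46 and 8.03 CPM in Th17 and 7.75 and 5.98 CPM in naive libraries, 2 rose and 3 fell. All these B cell and myeloid calls were of genes that passed the filter on low counts in a single group. They had to differ, and their calls are descriptions. Over all genes tested 34.3% were called higher and 30.7% lower. Of 4 markers of follicular helper T cells, a type rich in PD-1 and ICOS, 1 rose and 0 fell. It was Il21, at 261 and 156 CPM in Th17 libraries, against 0.0531 and 0.141 CPM in naive libraries. Il21 passed the filter only through its Th17 reads, so its call is a description. The defining gene Cxcr5 was not called, at 6.19 ± 2.18 CPM in Th17 and 4.63 ± 1.77 CPM in naive cells (SD, n = 2). The part of these cells in the results was not tested.

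To compare the genes with each other, reads were divided by the length of the merged exons, giving RPKM (CPM per kilobase). In Th17 cells Ctla4 led with 682 ± 150 RPKM (SD, n = 2), which ranked 43 among 16295 genes, whereas in naive cells it had 1.86 ± 0.456 RPKM and ranked 8539. Next in Th17 cells came Cd200 at 145 ± 35.0 and Icos at 141 ± 14.9 RPKM, which overlapped. Then came Tigit at 85.1 ± 21.7 and Btla at 69.0 ± 18.7 RPKM, which overlapped with Cd28 at 73.6 and 59.5 RPKM in its libraries. Pdcd1 at 45.2 ± 3.74 RPKM lay below these and above Lag3 at 39.9 ± 0.954 RPKM, without overlap. Havcr2 at 0.613 ± 0.395 and Cd160 at 0.228 ± 0.160 RPKM were last and overlapped.

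In naive cells the order was another. Cd28 led with 55.9 ± 2.53 RPKM (SD, n = 2), followed by Btla at 39.9 ± 7.27, Icos at 12.1 ± 0.863, Cd200 at 7.66 ± 0.345 and Pdcd1 at 4.24 ± 0.111 RPKM, with no overlap between neighbours. Ctla4, Cd160, Lag3 and Tigit lay from 0.766 to 2.19 RPKM and overlapped in part, and Havcr2 was last at 0.0227 ± 0.00451 RPKM. Cd28 and Btla together thus gave most of the summed RPKM of the 10 genes in naive cells, with Cd28 at 42.9% and 46.3% and Btla at 33.5% and 29.8%. In Th17 cells Ctla4 alone gave 54.2% and 52.6%, and Cd28 gave 5.06% and 5.43%.

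Ratios within a library do not depend on scaling between libraries. Ctla4 to Cd28, the competitors for CD80 and CD86, stood at 10.7 and 9.68 in Th17 libraries, against 0.0379 and 0.0285 in naive libraries. Icos to Cd28 stood at 2.06 and 2.19 in Th17 and at 0.220 and 0.212 in naive libraries. The 7 inhibitory receptors summed to 1059 and 785 RPKM in Th17 libraries and 56.0 and 43.8 RPKM in naive libraries, and the costimulatory pair to 225 and 190 RPKM in Th17 and 70.4 and 65.6 RPKM in naive libraries. The ratio of these sums was 4.70 and 4.13 in Th17 cells and 0.796 and 0.668 in naive cells. Each of these ratios was thus higher in both Th17 libraries than in both naive libraries. Ctla4 alone gave 788 and 576 RPKM of the inhibitory sum in Th17 libraries, against 2.19 and 1.54 RPKM in naive libraries. An exact permutation test of 2 against 2 libraries cannot go below a two-sided p of 0.333. Transcript levels need not follow protein levels at the surface.

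**Figure D3:**
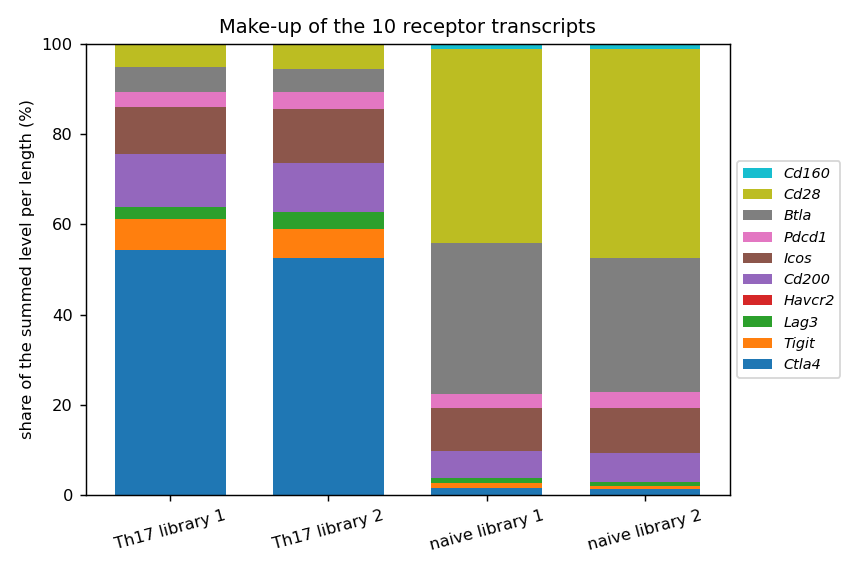
Share of each gene in the summed RPKM of the 10 genes, in percent, with a stacked bar for every library. Ctla4 makes up 54.2% and 52.6% in Th17 libraries and 1.63% and 1.32% in naive libraries, where Cd28 and Btla fill most of the bar.

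The genes lie in 2 clusters and as single genes (GRCm38, GENCODE M21). Cd28 (chr1:60716800-60773359), Ctla4 (chr1:60887000-60915832) and Icos (chr1:60977927-61000320) are neighbours on the plus strand, with 114 kb and 62.1 kb between them and 0 other coding genes. Btla (chr16:45224315-45257670, plus) and Cd200 (chr16:45382135-45409053, minus) are neighbours 124 kb apart, with Tigit (chr16:43648867-43664146, minus) 1.56 Mb away on the same chromosome. Neighbours shared or differed in direction. Within the chromosome 1 cluster the log2 fold changes were 0.25 for Cd28, 8.50 for Ctla4 and 3.54 for Icos, and beside Cd28 the cytoskeletal adaptor gene Raph1 rose by 4.75 (SE 0.22). In the chromosome 16 pair Btla stood at 0.79 and Cd200 at 4.24. Lag3 (chr6:124904361-124911705, minus) lies 16139 bases from Cd4, which fell to 593 ± 48.1 CPM in Th17 cells, against 1342 ± 97.6 CPM in naive cells (SD, n = 2) while Lag3 rose. On its other side, 1975 bases away, Ptms rose by 0.83 (SE 0.18). Pdcd1 (chr1:94038305-94052553, minus), Havcr2 (chr11:46454935-46481255, plus) and Cd160 (chr3:96798763-96829351, minus) stand with none of the 10 beside them, and Med7, next to Havcr2, rose by 1.26 (SE 0.21).

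NFAT and AP-1 are factors of antigen-receptor signalling, and STAT factors of cytokine signalling. The 250 bases before each start were read for 3 motifs, on both strands: GGAAA, the core of NFAT sites, TGANTCA of AP-1 and TTCNNNGAA of STAT factors. The RefSeq promoter table (GRCm38.p6) held 8 promoters for 7 of the 10 genes, and Cd28, Icos and Lag3 are named only. Of all 32851 promoters in it 55.6% held GGAAA, 6.75% TGANTCA and 7.02% TTCNNNGAA. Shown 5′ to 3′ are the windows of Ctla4, Tigit and Pdcd1, inhibitory genes that rose and have a match, and of Cd200, which rose and has none, with matches in capitals. The first is chr1:60908775-60909024 (plus strand), then chr16:43664185-43664434, chr1:94052554-94052803 and chr16:45409054-45409303 (minus strand). The RefSeq start of Ctla4 lies inside the gene's GENCODE span and that of Tigit outside it, so distances hold for the RefSeq starts.
Ctla4: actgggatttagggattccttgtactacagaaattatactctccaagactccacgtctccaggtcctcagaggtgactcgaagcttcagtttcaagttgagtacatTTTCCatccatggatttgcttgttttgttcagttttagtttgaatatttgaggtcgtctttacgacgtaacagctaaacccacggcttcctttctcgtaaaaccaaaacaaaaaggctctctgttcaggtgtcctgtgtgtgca
Tigit: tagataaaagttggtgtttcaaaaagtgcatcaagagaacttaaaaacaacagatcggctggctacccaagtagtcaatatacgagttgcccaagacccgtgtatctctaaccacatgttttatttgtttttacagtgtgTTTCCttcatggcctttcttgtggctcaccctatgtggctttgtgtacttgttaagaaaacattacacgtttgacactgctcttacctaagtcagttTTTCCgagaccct
Pdcd1: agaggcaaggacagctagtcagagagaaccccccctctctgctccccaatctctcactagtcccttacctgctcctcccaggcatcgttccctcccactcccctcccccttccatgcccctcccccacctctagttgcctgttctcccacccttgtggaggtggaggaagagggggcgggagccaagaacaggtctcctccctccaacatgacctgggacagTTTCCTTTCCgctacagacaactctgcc
Cd200: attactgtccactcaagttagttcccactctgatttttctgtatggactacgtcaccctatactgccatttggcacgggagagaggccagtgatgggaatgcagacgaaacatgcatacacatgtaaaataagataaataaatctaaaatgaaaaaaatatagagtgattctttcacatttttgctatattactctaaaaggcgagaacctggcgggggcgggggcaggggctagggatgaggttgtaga

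All matches in these windows were to GGAAA, the strand opposite reading TTTCC. Ctla4 had 1 match, which began 144 bases before the start, Tigit had 2 at 110 and 13 bases, and Pdcd1 had 2 at 28 and 23 bases. Of the other promoters, Havcr2 had 1 match to TGANTCA at 200 bases, Btla had 0 matches, and of the 2 of Cd160 the one inside the gene's span had GGAAA at 145 and TTCNNNGAA at 234 bases and the other had 0. GGAAA thus occurred for 4 of 7 genes, near the share among all promoters. A match describes letters and is no evidence of binding.

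The genes of the receptors' ligands and partners went both ways. Which cells in the bulk RNA gave their reads was not tested. Of 14 listed 13 were tested, 7 rose and 4 fell, with a median log2 fold change of 0.63 against 0.06 over all genes. Calls in either direction were common over all genes tested, at 34.3% higher and 30.7% lower. Cd80, Nectin2 and Nectin3 passed the filter on low counts only through their Th17 reads. Of the ligands shared by CD28 and CTLA4, Cd80 rose to 60.0 and 55.5 CPM in Th17 libraries, against 0.265 and 0.141 CPM in naive libraries (log2 8.05, SE 0.27, edgeR adjusted p = 1.2e-07). Cd86 instead fell, at 1.06 ± 0.425 CPM in Th17 and 11.1 ± 1.48 CPM in naive cells (SD, n = 2). Icosl, the ligand of ICOS, fell while Icos rose, at 2.31 ± 0.369 CPM in Th17 and 10.6 ± 0.972 CPM in naive cells (SD, n = 2).

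Of the ligands of PD-1, Pdcd1lg2 rose to 26.6 and 20.7 CPM in Th17 libraries, against 0.478 and 0.634 CPM in naive libraries, a log2 fold change of 5.41 (SE 0.31). Cd274, which encodes PD-L1, was called at 0.63 (SE 0.18, adjusted p = 0.012), but not without Th17 library 1 or either naive library, with log2 values of 0.39 to 0.66. Tnfrsf14, which encodes the HVEM that BTLA and CD160 bind, fell to 13.9 and 12.4 CPM in Th17 libraries, against 79.3 and 60.3 CPM in naive libraries (log2 -2.40, SE 0.19, edgeR adjusted p = 8.0e-06). Its fall thus stood beside a rise of Btla and a fall of Cd160.

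The TIGIT ligand gene Pvr was not called, at 80.8 ± 6.95 CPM in Th17 and 67.1 ± 1.53 CPM in naive cells (SD, n = 2), although upper-quartile scaling called it at 0.38 and library totals at 0.57. Nectin2 and Nectin3, of the same ligand family, each had 1 naive read, with ratios of 145 (25.6 to 5746) and 243 (43.3 to 9629) by counting intervals. Th17 library 1 had 3.50 CPM of Nectin3 and library 2 had 15.8 CPM, and its call ended without either naive library. Lgals9, a galectin described as a ligand of TIM-3, fell by a log2 of 0.85 (SE 0.18), a call lost without naive library 2 (adjusted p = 0.055). Lgals3, a galectin described as a ligand of LAG3, rose to 98.4 and 78.5 CPM in Th17 libraries, against 2.49 and 0.845 CPM in naive libraries. Ceacam1, a partner of TIM-3, was called at 1.65 (SE 0.63, adjusted p = 0.045), a call lost in 7 of the 11 alternatives. Fgl1, the soluble ligand of LAG3, had 1 read in Th17 and 0 in naive cells and was not tested.

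Other immunoglobulin-family receptors of lymphocytes mostly fell. Of 18 listed 16 were tested, 12 fell and 1 rose, with a median log2 fold change of -1.77, against 30.7% lower and 34.3% higher over all genes tested. Slamf1, a self-binding receptor, was the one that rose, by 2.22 (SE 0.16). The largest falls were those of Cd7 at -8.16 (SE 0.30) and of Lair1, a collagen receptor with inhibitory function, at -4.34 (SE 0.41). Cd7 is counted among the 12, but it passed the filter on low counts only through its naive reads. It therefore had to differ, and its call is a description. Cd226, the activating rival of Tigit, was not called, at 50.4 ± 14.7 CPM in Th17 and 46.7 ± 3.80 CPM in naive cells (SD, n = 2), and Cd96, another receptor for CD155, fell by 3.86 (SE 0.21). Vsir, which encodes the checkpoint protein VISTA, fell by 2.65 (SE 0.17).

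The proteins that pass on or restrain the signal of these receptors had lower transcript levels in most cases. Of 25 proximal signalling genes, all tested, 18 fell and 2 rose, with a median log2 fold change of -1.27. Over all genes tested 30.7% were called lower and 34.3% higher. Trat1, an adaptor described to bind CTLA4, fell by 3.49 (SE 0.27), and Grap2, which encodes the adaptor GADS recruited by CD28, changed by -3.07 (SE 0.20). The genes that rose were Cblb, a ubiquitin ligase that restrains signalling without CD28, by 0.88 (SE 0.15), and Ppp2ca, a phosphatase subunit that associates with CD28 and CTLA4, by 0.51 (SE 0.16). Ppp2ca was not called without naive library 1, without either Th17 library or without a filter. Of the phosphatases used by PD-1 and BTLA, Ptpn6 was called lower at -0.59 (SE 0.18) and Ptpn11 was not called, at 0.07 (SE 0.15). Ptpn6 was not called without Th17 library 2, without either naive library or with library totals.

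CTLA4 cycles between the surface and endosomes. Of 5 genes of that traffic 3 rose and 2 fell, with a median log2 fold change of 0.48. The shares over all genes tested were 34.3% higher and 30.7% lower. Rab11a, of recycling endosomes, rose by 1.72 (SE 0.27), and Lrba, which protects CTLA4 from degradation, by 0.72 (SE 0.22). Ap1m1 fell by 0.83 (SE 0.16) and Def6, a partner of LRBA, by 0.49 (SE 0.16). Without naive library 1 or 2 Rab11a kept values of 1.66 and 1.69, which did not pass the test (adjusted p = 0.11 in both). Lrba was not called without naive library 2 or with a minimum mean of 10 reads, and Def6 was lost in 5 of the 11 alternatives.

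Of 17 transcription factors and RNA-binding proteins known to act on these genes 9 rose and 4 fell, with a median log2 fold change of 1.50. Among all genes tested 34.3% were called higher and 30.7% lower. The largest rises were those of the orphan nuclear receptor gene Nr4a2 at 6.63 (SE 0.25) and of Irf4 at 5.65 (SE 0.24). Prdm1 and Tox were the largest falls, at -3.48 (SE 0.62) and -2.82 (SE 0.18). Prdm1 was not called without either naive library. Of 3 genes whose proteins act on Icos mRNA, the RNase gene Zc3h12a rose by 1.50 (SE 0.18), while Rc3h1 and Rc3h2 were not called, at -0.17 (SE 0.25) for Rc3h1 and -0.01 (SE 0.58) for Rc3h2. Without naive library 2, Rc3h1 was called at -0.58 (adjusted p = 0.038), and without Th17 library 2, Rc3h2 was called at -0.78 (adjusted p = 0.0015).

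**Figure D4:**
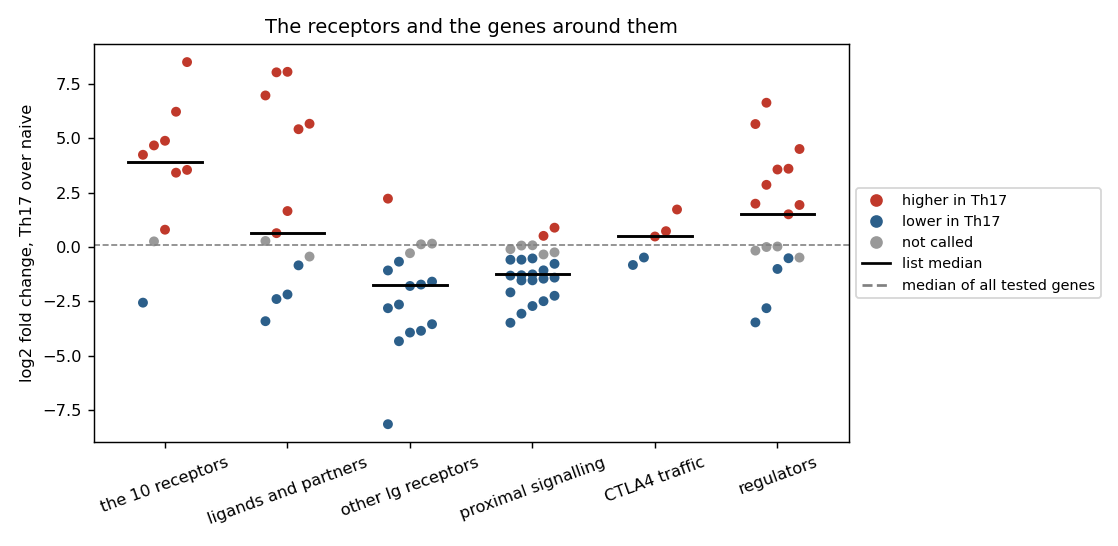
Difference between Th17 and naive cells, as a log2 fold change, for the 10 receptors and for 5 lists around them, each point a tested gene coloured by its call, with the list median as a bar and the median of all tested genes at 0.06 as a dashed line. The medians are 3.89 for the 10 receptors, 0.63 for ligands and partners, -1.77 for other receptors of the family, -1.27 for proximal signalling, 0.48 for CTLA4 traffic and 1.50 for regulators.

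Genes with levels most like those of 2 of the receptors were found by Euclidean distance of log2 CPM over the 4 libraries. Closest to Ctla4 were Il2ra, which encodes the α chain of the IL-2 receptor, at a distance of 1.61, Anxa2 at 1.70 and Itga3 at 2.44. Il2ra had 3225 and 2455 CPM in Th17 libraries, against 2.44 and 2.82 CPM in naive libraries. Closest to Cd160 were the protease gene Mcpt8 at 0.73, Fbxo27 at 0.73 and Sssca1 at 0.82, all scarce, with Mcpt8 at 0.902 and 0.530 CPM in Th17 and 4.62 and 4.44 CPM in naive libraries. As with Cd160, the calls of all 3 as lower ended without either naive library. With 4 libraries in 2 groups this likeness mostly records the difference between groups.

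RNA editing, the other readout of the series, gave no value for these genes. Among 355 sites listed for DDX5-deficient and wild-type Th17 cells and 869 listed for Th17 and naive cells, 0 lay within the 10 genes or were named to them. The tables list only sites past the caller's filters, so this does not show that the transcripts were unedited.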

How the data were processed

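Ribosome-depleted RNA of 2 Th17 and 2 naive libraries was read from a table that gave raw read counts per gene, called original per the file headers. Its normalized signal was the count divided by 1 size factor per library, by the authors, and was not used further. It also held a deposited log2 fold change, Wald score and p-value for Th17 over naive cells, in columns named as DESeq2 names them. The editing tables gave the edited fraction per site, as the deposited values show, and only the places of sites were used. Per the submitters' processing notes, the build was mm10 and the tools included DESeq2 1.18.1, featureCounts and STAR 2.6.1a. Settings and the use of strand are not given in the sources used here.

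Counts were tested with edgeR 4.0.16 in R 4.3.3 (filterByExpr, TMM, robust quasi-likelihood fit on group alone, Benjamini-Hochberg over all genes), after the script was tested on simulated data. The SE is the log2 fold change over the square root of F, and 95% intervals use its t quantile. Intervals of ratios of reads are exact conditional binomial and cover counting error only, since PCR reads are not independent molecules. Exon lengths and places came from GENCODE M21, matched by identifier for 16295 of 16308 genes. RPKM depends on the annotated exons.

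The design text calls the 2 replicates of each condition independent. Libraries were grouped by title. The 10 genes and the lists were chosen with earlier results of these data known. For lists around the receptors, the rule named the 2 largest called rises and falls and the ligands of the receptors, plus the 3 genes nearest in level to the receptor genes with the largest rise and fall. Genes outside it (Cd4, Cd226, Cd96, Cd3e, Vsir, Raph1, Pdzk1, Ptms, Med7, Zc3h12a, Ptpn6, Ptpn11, Rc3h1, Rc3h2, Foxp3, Gpr83, Cxcr5, Ncr1, Klrb1c and Klra8) were named after their values were seen. The alternatives were 3 other scalings, DESeq2 1.42.0, 2 other filters, a replicate block, each library left out and another gene length.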

Additional observations from a re-analysis of the deposited data

How the results depend on the processing

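The 10 receptor genes kept their direction under the 11 alternatives, and Havcr2 was not tested without Th17 library 1. Without naive library 1 or 2, when the lone naive library is assumed to vary like the Th17 libraries, 0 of the 10 were called lower against 1 in the full data. Over all genes, leaving out 1 library at a time gave 2380 to 4847 higher and 2567 to 3672 lower calls, against 4116 and 3684 in the full data. Among the genes of the lists, each call that was lost is given beside its gene where named, and most losses came without naive library 1 or 2. Library totals alone gave 5186 higher and 2619 lower calls, moving the split toward higher. The ratio of Ctla4 to Cd28 in Th17 cells was 8.72 with the longest transcript as length, against 10.2 with merged exons, and 43 of 45 pairs of the 10 genes kept their order in Th17 and 45 in naive cells. With the replicate number as a block, 4094 genes were higher and 3644 lower, and the calls of the 10 genes were 8 higher and 1 lower, as without it. Deviations of same-numbered libraries from their group means correlated at -0.08 across genes, so the numbers were not taken to pair libraries. The descriptions give replicate 2 of both groups a shared sample number and replicate 1 different ones, with no word on what it marks. Depth limits the statements on Havcr2 and Cd160, which had as few as 1 and 4 reads in a library.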
